A study of Homo sapiens with 6 samples.

Results

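The genes described here are 57 genes of DNA replication, chosen by name for their roles in origin licensing, helicase activation, DNA synthesis, clamp loading, fork protection and chromatin assembly. All 57 were found by symbol among the 63236 genes of the deposited table. RNA had been sequenced from FUJIOKA, a human acute myeloid leukaemia cell line. The 6 libraries comprised 3 of cells with a scrambled control shRNA (shNEG) and 3 of cells with an shRNA against SPINK2 (shSPINK2), each expressed from the doxycycline-inducible Tet-pLKO-puro vector after lentiviral transduction and puromycin selection. The protocol in the labels lists a pair of SPINK2 shRNAs, and no label ties either to a library. SPINK2 encodes a Kazal-type inhibitor of serine proteases. Nothing in the labels says whether the 3 libraries of a group came from separate transductions or separate cultures.

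Before S phase, the origin recognition complex (ORC) binds DNA and, with CDC6 and CDT1, loads the MCM2-7 ring onto it, which licenses the origin. The kinase CDC7 with its activator DBF4, and cyclin-dependent kinases acting through TICRR, MTBP and TOPBP1, then bring CDC45 and the GINS complex to MCM2-7 to form the moving helicase. Polymerase alpha with primase starts each strand, polymerases epsilon and delta extend it around the PCNA clamp, and the RPA complex covers the exposed single strand. Many of these genes are known targets of E2F transcription factors, which act at the passage from G1 into S phase.

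For each gene the table gave the authors' normalised read count, averaged by them across the 6 libraries. The values of this study therefore describe the replication machinery of FUJIOKA cells over control and knockdown libraries together. Shares of the mean that came from shNEG and from shSPINK2 libraries cannot be told apart, no spread between replicates can be given, and no comparison of the groups was made. Neighbours in any order of levels below could not be tested against each other. In bulk RNA, a higher share of cells in S phase and more RNA per cell cannot be told apart.

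Promoters are shown first, because they hold features of the members that the choice by name did not use. RefSeq promoter windows of GRCh38.p14, running from 250 bases before to 50 bases after a transcription start, were given for 48 of the 57 genes, in 64 windows, since 12 genes have more than 1 window. RPA2, GINS4, MTBP, DSCC1, MCM5, MCM4, RPA3, POLD3 and RECQL4 had no entry. The E2F words searched on both strands were TTTCCCGC, TTTGGCGC, TTTCGCGC and TTTGCCGC. TTTGGCGC and TTTCGCGC can overlap when they face each other, or a copy of the same word, on opposite strands. A pair of matches can therefore be a single stretch of DNA. The stretches printed below are the 160 bases before the start of CDT1 (chr16:88803629-88803788, plus strand), GINS2 (chr16:85688955-85689114, minus strand) and MCM6 (chr2:135876444-135876603, minus strand), each written 5′ to 3′ along the gene with the E2F words in capitals. They are the 3 promoters with an E2F word among the 12 genes whose stretch held no annotated exon.
CDT1: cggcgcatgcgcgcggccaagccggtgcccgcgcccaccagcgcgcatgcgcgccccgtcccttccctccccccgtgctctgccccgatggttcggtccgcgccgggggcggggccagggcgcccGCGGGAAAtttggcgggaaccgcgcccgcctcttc
GINS2: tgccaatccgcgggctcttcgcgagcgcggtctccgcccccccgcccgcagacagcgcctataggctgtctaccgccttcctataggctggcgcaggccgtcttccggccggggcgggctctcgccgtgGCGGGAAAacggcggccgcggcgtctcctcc
MCM6: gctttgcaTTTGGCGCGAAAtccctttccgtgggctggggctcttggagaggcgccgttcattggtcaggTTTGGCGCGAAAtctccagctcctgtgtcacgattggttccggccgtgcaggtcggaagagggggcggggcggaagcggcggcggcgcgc

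CDT1, the licensing factor, and GINS2, a subunit of the helicase, each carried 1 copy of TTTCCCGC on the reverse strand, starting 35 and 31 bases before the start. MCM6 carried 4 matches, the most of any gene, as 2 overlapping pairs of TTTGGCGC and TTTCGCGC that began at positions -152 and -90. Over the whole set, 24 of 64 windows held an E2F word (37.5%). The same share was 3.31% over all 35116 windows of the table and 5.02% over the 13417 windows of genes whose mean reached 50. Members were genes with high RNA, so the latter is the closer background, and the share in replication genes lay above both.

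The 24 windows belonged to 23 genes, and 7 of these genes held 2 or more matches. For MCM2 and for TIPIN, the 2 matches were an overlapping pair of the same word on opposite strands, so a single stretch. Of the 32 matches, 25 began within 100 bases of the start, with a median position of -44. TTTCCCGC was found in 12 of the 64 windows (18.8%), against 2.50% of windows of genes whose mean reached 50. TTTGGCGC was found in 8 and TTTCGCGC in 7, whereas TTTGCCGC was found in 0 of 64, against 0.865% of the windows of that background. Genes with a match included ORC3, GMNN, CDC6, MCM2, MCM3, MCM7, CDC7, TOPBP1, POLA1, POLE, PCNA, RFC3, TIPIN, LIG1 and UHRF1. A match is a run of letters and not a bound site.

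The CCAAT word, the core of NF-Y sites, was found in 34 of the 64 windows (53.1%), against 34.9% of windows of genes whose mean reached 50 and 34.6% of all windows. TTTGAA, the word of the CHR element known from genes of G2 and mitosis, was found in 2 of the 64 windows (3.13%), against 10.6% of that background and 15.2% of all windows. The E2F words hold more G and C than TTTGAA, and the backgrounds were not matched for base composition. Its part in the E2F and CHR shares was not tested. The level of a gene is its mean normalised count divided by gene length in kilobases (counts per kb). The median level was 503 counts per kb over the 23 genes with a match and 529 counts per kb over the 25 genes with a window and no match, and these medians were not tested.

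**Figure D1:**
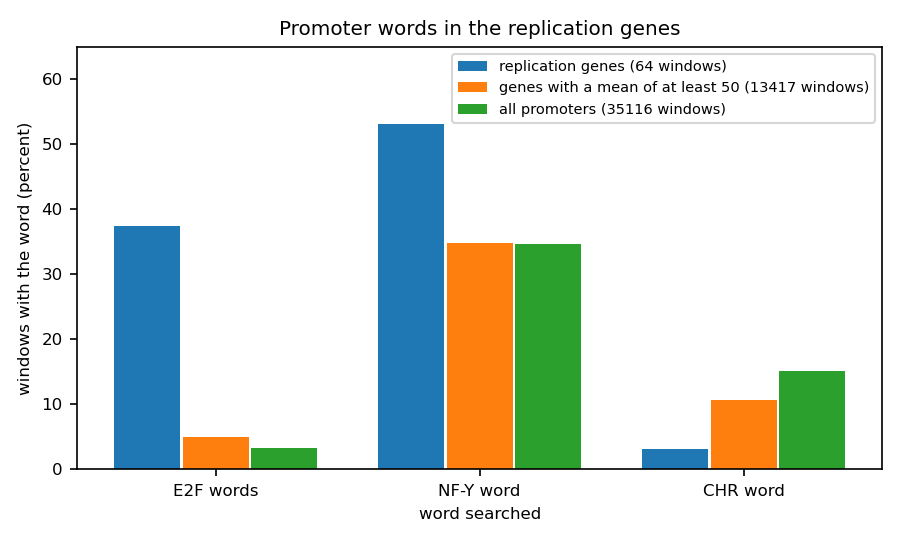
The height of each bar is the percent of promoter windows that hold the word on the x axis (E2F words, the NF-Y word CCAAT and the CHR word TTTGAA), for the replication genes, for genes whose mean reached 50 and for all promoters. E2F words stood in 37.5% of windows of replication genes against 5.02% and 3.31% of the backgrounds, and the CHR word in 3.13% against 10.6% and 15.2%.

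All 57 genes were well covered. Their means ran from 630 normalised counts for MTBP to 28016 for MCM7, with a median of 2587. Means of 7 genes were above 10000 and those of 4 were under 1000. The members held 0.620% of all normalised counts, and MCM2-7 alone held 35.4% of that share. Per kilobase of joined exons, the median member stood at 513 counts per kb, against a median of 138 and quartiles of 29.4 and 443 over the 15993 genes whose mean reached 10 and a known length. The median member was at percentile 78.0 of these genes. Of the 57 genes, 56 were above percentile 50 and 14 above percentile 90. MTBP, at percentile 38.9 (49.5 with the longest transcript), was the gene below percentile 50. Among genes whose mean reached 50, 50 members were above percentile 50 and 12 above percentile 90. Among protein-coding genes whose mean reached 10, these numbers were 52 and 12. With the coding sequence as length, 43 were above percentile 50 and 4 above percentile 90.

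**Figure D2:**
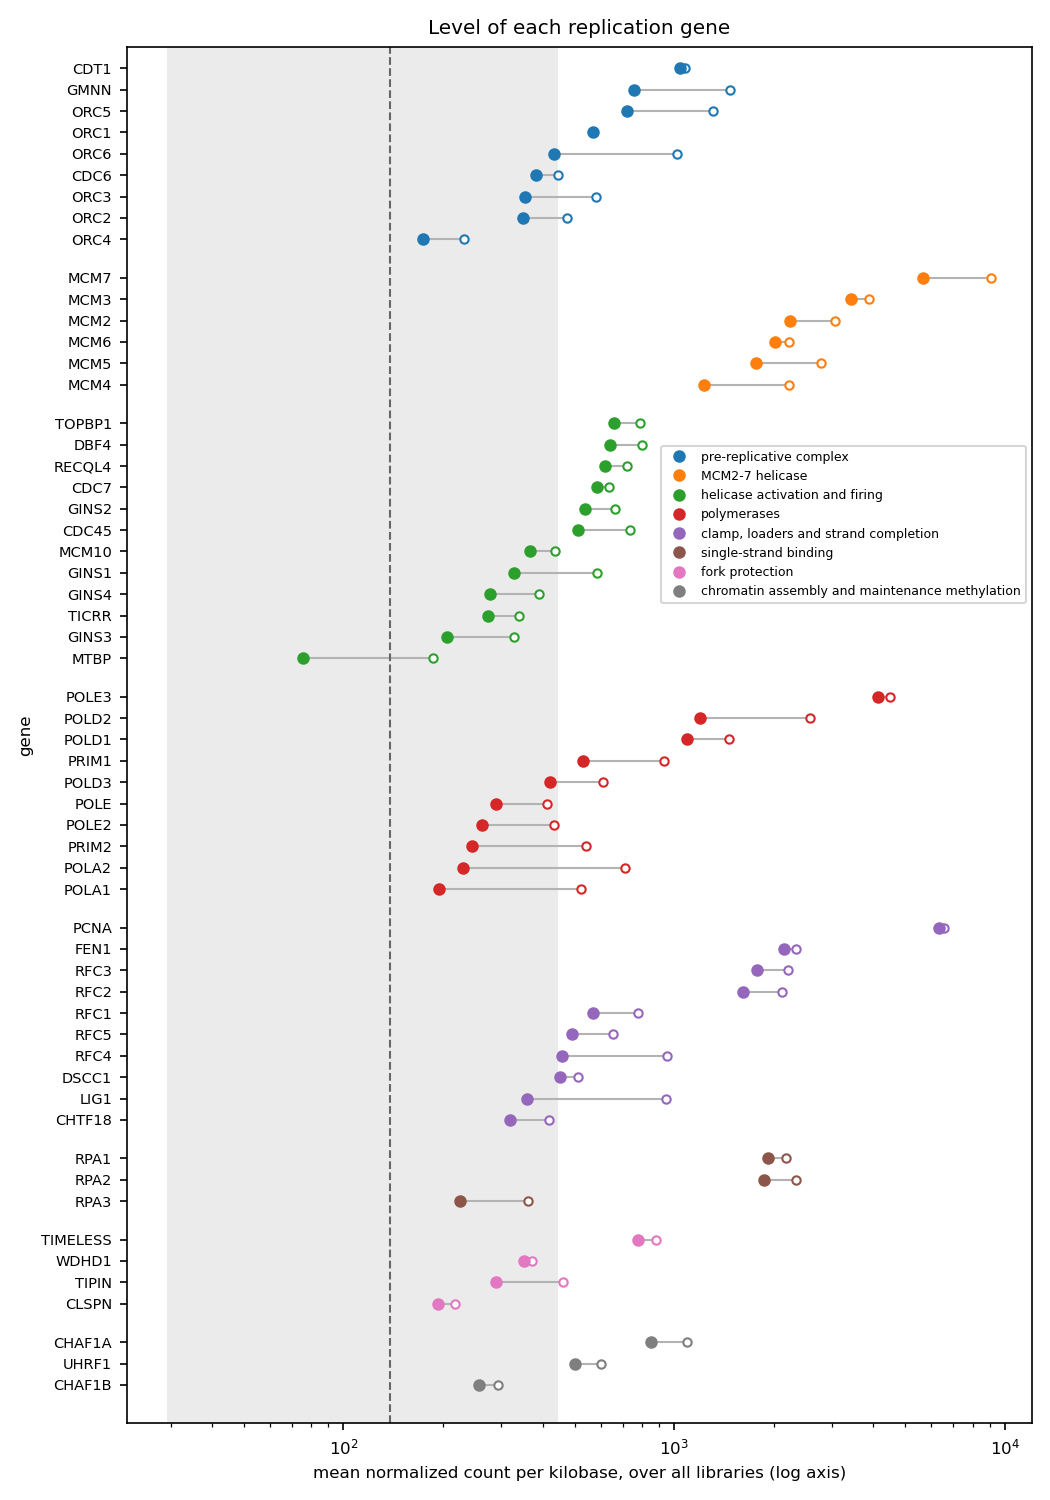
Each row is a gene, grouped and coloured by role, and the x axis is its mean normalised count per kilobase over all 6 libraries, on a log axis, with no error because the table has no value per library. Filled points divide by all exons joined and open points by the longest transcript, the dashed line is the median (138) and the shaded band the quartiles (29.4 to 443) of genes whose mean reached 10. Every filled point but that of MTBP lies above the median, and PCNA, MCM7, POLE3 and MCM3 are the 4 farthest to the right.

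The pre-replicative group, which here includes geminin, had a median level of 433 counts per kb. Levels are given with joined exons unless another length is named. CDT1 led the 9 genes of this group with a mean of 2873 and a level of 1041 counts per kb. ORC4, a subunit of the origin recognition complex, was the lowest at 174 counts per kb, whereas with the coding sequence ORC3 was the lowest (680) and ORC4 had 1186. Geminin (GMNN), the protein that binds and inhibits CDT1, stood at 755 counts per kb, below CDT1 with joined exons but above it when the longest transcript was used as length (1480 against 1078). Of the other ORC subunits, ORC5 had 722, ORC1 570, ORC6 433, ORC3 355 and ORC2 349 counts per kb. CDC6, the ATPase that works with ORC to load the helicase, had 383 counts per kb.

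The MCM2-7 genes, which encode the ring of the replicative helicase, had the highest median level of the 13 complexes, 2129 counts per kb. MCM7 (ENSG00000166508.17, chr7:100092233-100101940) had a mean of 28016 and a level of 5648 counts per kb. MCM3 followed with 3421, MCM2 with 2238, MCM6 with 2020, MCM5 with 1765 and MCM4 with 1233 counts per kb. All 6 lay above percentile 90 with joined exons, with MCM4 the lowest at percentile 90.9, but with the coding sequence MCM7 alone did, and the others lay between percentiles 83.0 and 89.9. The highest subunit exceeded the lowest 4.58 times. MCM7 stayed the highest with either other length, and the lowest was then MCM6 in place of MCM4, with ratios of 4.08 for the longest transcript and 3.83 for the coding sequence. Without MCM7 the others lay within 2.78 times of each other.

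With joined exons, each of the 12 genes that turn the loaded ring into an active helicase stood below all 6 genes of the ring. TOPBP1, the scaffold that joins the firing factors, was the highest of the 12 at 660 counts per kb, and MTBP was the lowest at 75.6 counts per kb. The highest was DBF4 (802) with the longest transcript and GINS1 (4333) with the coding sequence, where GINS1 exceeded MCM6 (3391) and MCM2 (3891). TICRR, the partner of MTBP in origin firing, had 274 counts per kb. CDC7 and DBF4, catalytic and regulatory subunits of the same kinase, were nearly equal at 585 and 638 counts per kb, a ratio of 1.09. The GINS subunits had 539 (GINS2), 328 (GINS1), 277 (GINS4) and 206 (GINS3) counts per kb. CDC45, which joins GINS and MCM2-7, had 513 counts per kb. RECQL4, a helicase of the RecQ family that acts in initiation, had 620 and MCM10, which helps to activate the helicase, 366 counts per kb.

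Among the polymerases, POLE3 stood apart. POLE3 (ENSG00000148229.12, chr9:113407235-113410675), a histone-fold subunit of polymerase epsilon that is also part of a chromatin remodelling complex, had a mean of 10753 and a level of 4125 counts per kb. POLE, the catalytic subunit, had 290 and POLE2 had 263 counts per kb, within 1.10 times of each other. POLD2 and POLD1 of polymerase delta had 1201 and 1097, and POLD3 had 421 counts per kb. With the coding sequence, POLD1 (1593) and POLD3 (1655) were close and POLD2 had 6224. In the complex of polymerase alpha with primase, PRIM1, the catalytic primase subunit, had 529, PRIM2 245, POLA2 229 and POLA1, the catalytic polymerase subunit, 194 counts per kb. POLA1 was the lowest of the 10 polymerase genes with joined exons, whereas POLE was the lowest with the longest transcript, at 413 counts per kb, and POLE2 with the coding sequence, at 490.

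PCNA, the sliding clamp that tethers polymerases to DNA, had the highest level of all 57 genes with joined exons, and came after MCM7 with the longest transcript and after POLE3 and MCM7 with the coding sequence. PCNA (ENSG00000132646.10, chr20:5114953-5126626) had a mean of 8901 and a level of 6344 counts per kb, at percentile 98.8. That was 83.9 times the level of MTBP with joined exons, whereas with the longest transcript PCNA had 6550 and MTBP 187 counts per kb. FEN1, the nuclease that trims Okazaki fragments, had 2143 counts per kb, whereas LIG1, the ligase that seals them, had 358 with joined exons and 945 with the longest transcript. The subunits of the clamp loader RFC fell apart into RFC3 and RFC2, at 1780 and 1621 counts per kb, and RFC1, RFC5 and RFC4, at 568, 492 and 459. CHTF18 and DSCC1, members of an alternative clamp loader, had 319 and 453 counts per kb, and CHTF18 was the lowest of this role.

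RPA1 and RPA2 of the complex that covers single-stranded DNA had levels of 1921 and 1874 counts per kb with joined exons, and of 5709 and 3456 with the coding sequence. RPA3, the smallest subunit, had 226 counts per kb. The ratio of 8.51 between RPA1 and RPA3 fell to 2.84 when the coding sequence was used as length, since most of the annotated RPA3 sequence is not coding. TIMELESS, which protects moving forks, had 779 and its partner TIPIN 290 counts per kb. CLSPN (claspin), the mediator of the replication checkpoint, was the lowest gene of fork protection at 193 counts per kb, and WDHD1, which links the helicase to polymerase alpha, had 352. CHAF1A and CHAF1B, subunits of the chromatin assembly factor CAF-1, had 852 and 257 counts per kb. UHRF1, which brings the maintenance methyltransferase to newly made DNA, had 503 counts per kb.

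Levels of subunits of the same complex were set against each other. Over 13 complexes, defined within the roles after the table had been seen, the median ratio of highest to lowest subunit was 3.31. Only subunits among the 57 genes were counted, so a complex can be partial. The complexes held 2 to 6 counted genes, and a ratio of highest to lowest cannot fall as genes are added. No ratio was computed for unrelated genes. Left out were POLE4 of polymerase epsilon (543 counts per kb), POLD4 of polymerase delta (167) and CHTF8 of the loader with CHTF18 and DSCC1 (2182). Polymerase epsilon had the widest ratio with each length, 15.7 with joined exons, 10.9 with the longest transcript and 49.8 with the coding sequence. CDC7 with DBF4, a set of only 2 genes, had the narrowest with joined exons. In some complexes, 1 of the subunits counted set the ratio. Without POLE3 the ratio of polymerase epsilon fell to 1.10, which covers POLE and POLE2 but not POLE4. Without RPA3 that of RPA fell to 1.03 with joined exons and to 1.65 with the coding sequence. With joined exons, polymerase delta fell from 2.86 to 1.09 without POLD3, and polymerase alpha with primase from 2.72 to 1.26 without PRIM1. With the coding sequence, polymerase delta fell to 1.04 without POLD2.

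**Figure D3:**
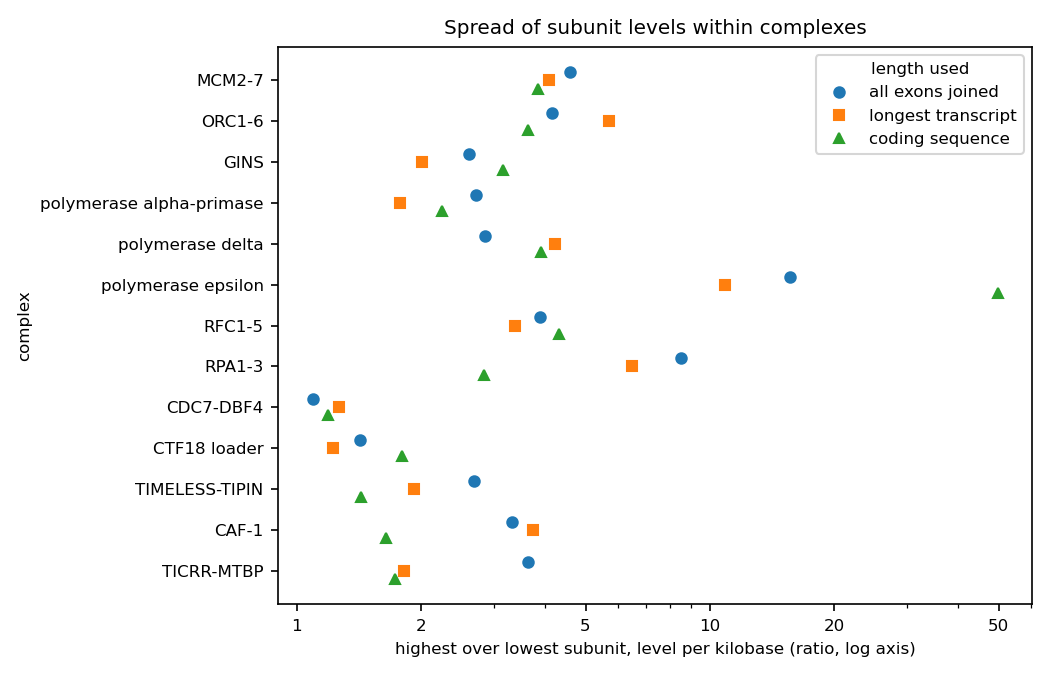
Each row is a complex, with only its subunits among the 57 genes counted. The x axis is the level per kilobase of the highest subunit over that of the lowest, on a log axis. Markers show the length used (all exons joined, longest transcript, coding sequence). Polymerase epsilon lies farthest to the right with each length (10.9 to 49.8), and CDC7-DBF4 stays near 1 (1.09 to 1.26).

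These levels depend on the length used. Joined exons include every annotated exon, also those of rare transcripts, and the level of 20 of the 57 genes rose by over 1.5 times when the longest transcript was used. Across the 57 genes, which are not independent replicates, the order by joined exons and by longest transcript had a Spearman rho of 0.923, and that by joined exons and by coding sequence a rho of 0.722. PCNA ranked 1 with joined exons, MCM7 with the longest transcript and POLE3 with the coding sequence. MTBP ranked 57 with each of the 3 lengths.

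Members shared few exon bases with other genes. Exon bases shared with another gene that reached a mean of 10 were found for 18 of the 57 genes, and in 0 of them did the overlap with a gene exceed 10% of the member's exons. As a share of the member's exons, MCM7 and AP4M1, on the opposite strand, overlapped the most, in 392 bases or 7.90% of the MCM7 exons, and AP4M1 had a mean of 750. In bases, TICRR and KIF7 overlapped the most, in 589. The overlapping gene had a higher mean than the member for 8 of the 18. NACA, on the same strand as PRIM1, shared 139 bases with it and had a mean of 24642 against 1749. FADS2, on the same strand as FEN1, shared 49 bases with it and had a mean of 20530 against 4710. Whether the counting used strand is not given in the sources used here, so reads in such stretches cannot be assigned. Of 17 pseudogenes named after 10 of the members, 8 were listed at 0 and 2 reached a mean of 10. PCNAP4 had 71.6 and DBF4P1 20.7 normalised counts, 0.805% and 0.708% of the mean of PCNA and DBF4.

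For 23 of the 57 genes, a gene on the opposite strand that reached a mean of 10 started within 1000 bases of the member's own start. MCM2 and TPRA1, for example, started 143 bases apart, and the level of MCM2 was 2238 counts per kb against 263 for TPRA1. FEN1 and TMEM258 started 109 bases apart, with 2143 against 1662 counts per kb. PCNA and CDS2 started 253 bases apart, with 6344 against 281 counts per kb. ORC3 and RARS2 started 39 bases apart, with 355 against 74.5 counts per kb. The member had the higher level in 16 of the 23 pairs and the neighbour in 7. Neither count was made over all genes. As 56 of the 57 members lay above percentile 50 by level, the 16 pairs are not read as a trait of such pairs. MTBP had 75.6 counts per kb against 570 for MRPL13, and ORC6 had 433 against 801 for VPS35.

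A further 34 genes of replication and its control, listed with the members but not among them, all reached a mean of 10. Their median level was 447 counts per kb and their median percentile 75.1, against 513 and 78.0 for the members, and 29 of 34 were above percentile 50. ATRIP, the partner of the checkpoint kinase ATR, was the lowest at 2.78 counts per kb, with a mean of 15.1. Exon overlaps were not looked up for these 34 genes, so whether reads of ATRIP were lost to an overlapping gene was not tested. TOP2A, the topoisomerase that untangles replicated DNA, was the highest at 3551.

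Facts of the whole table bear on these levels as follows. The means summed to 38425214 normalised counts, and 31016 of 63236 genes were listed at 0. Size factors recovered from genes with a single read ran from 0.985 to 1.03 over the 6 libraries, so the libraries were close in depth by this measure. SPINK2, the targeted gene, had a mean of 32.3. Its reads, recovered in the wider of the planned search ranges only, ran from 6 to 63 over the 6 libraries with none between 9 and 53, and since the table does not say which library is which, they do not check the knockdown. Of the leukocyte and myeloid markers, 7 of 8 reached a mean of 10. LYZ had a mean of 44097, CEBPA 32858, SPI1 10673, PTPRC 9179, CD33 7777 and MPO 1844, whereas the progenitor markers CD34 and KIT were at 19.6 and 0.666. Erythroid markers reached a mean of 10 in 0 of 3 genes and epithelial and stromal markers in 1 of 6 (COL1A1 149).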

How the data were processed

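RNA libraries of FUJIOKA cells (3 shNEG, 3 shSPINK2) were sequenced, aligned to GRCh38 and counted per gene by the authors, whose processing notes name STAR 2.7.11 and DESeq2 1.40.0. The annotation release and the strand setting are not given in the sources used here. The deposited file is the authors' DESeq2 table. The only column used was a signal, the authors' mean of normalised counts over all 6 libraries. The other columns hold the authors' comparison of the groups (log2 fold change, its standard error, statistic, p-value, adjusted p-value and a call), which were not used. With no value per library, the planned comparison of shSPINK2 with shNEG was not run, and no error can be given.

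Genes were matched by Ensembl ID to GENCODE release 44, which found 15993 of 16131 genes whose mean reached 10 (99.1%). Means were divided by length in kilobases. Size factors and the whole reads behind the SPINK2 mean were recovered from the means of genes with a single read (546 to 662 such genes per library). The step was tried on simulated data only in a search range narrower than the one that gave the SPINK2 reads. Recovery in that wider range was not tested. All member means were above 600, where whole reads cannot be recovered. The text gives every member, with full sentences for the highest and lowest of each role. The other 34 replication genes are named only as highest and lowest, except POLE4, POLD4 and CHTF8, subunits left out of the complexes. Members and lists were chosen with earlier results of these data known. Chosen after the table was seen were the complexes, the counting of promoter windows, the rule for the promoters printed, the overlaps and neighbours and their examples, the E2F genes named, the markers printed and a factor of 1.5 for calling a value moved. Analysis used Python 3.11.15, numpy 2.4.6, pandas 2.3.3 and matplotlib 3.10.9. The result for 1 list of cell type markers is not reported here.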

Additional observations from a re-analysis of the deposited data

How the results depend on the processing

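The median percentile of the members' level was 78.0 among genes whose mean reached 10, 89.0 among genes with a mean above 0, 72.0 among genes whose mean reached 50 and 72.7 among protein-coding genes, and 77.9 with the longest transcript and 63.9 with the coding sequence as length. The number of members above percentile 90 was 14, but 24 among genes whose mean was above 0. It was 12 among genes whose mean reached 50, 12 among protein-coding genes and 4 with the coding sequence. The median ratio of highest to lowest over complexes of 3 or more subunits was 4.01, and 2.18 without the lowest subunit of each. Of 42 ratios of single complexes under another length or without a subunit, 14 moved by over 1.5 times, in 10 complexes, 7 of them among the 26 with another length. The share of background promoter windows with an E2F word moved from 3.31% to 5.02% when the windows were those of genes whose mean reached 50. Counting only bases before the start, 26.6% of member windows and 2.79% of all windows held a word, and counting only the first window of each gene, an alternative chosen after seeing the data, 41.7% and 3.33%. The search for the SPINK2 reads gave 0 solutions in the planned range of 9 to 129 reads per library, 1 in the planned wider range of 0 to 258 and at a tolerance 10 times wider, and 2 at a tolerance 100 times wider. The median over the libraries, 31 reads, lay between 9 and 53, where no library had a value. It became 9 or 53 when each library was left out in turn, so it rests on which libraries enter. No paired analysis was possible because the table holds no value per library. For the same reason the planned edgeR test was not run, and no other fit, filter, left-out replicate or replicate block was tried.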

Other observations

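The reads recovered for SPINK2 over the 6 libraries, which carry no label, were 6, 7, 9, 53, 56 and 63. They fell into 3 low and 3 high values with none between 9 and 53. Which libraries these are is not known from the table, so they were not set against the groups.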
